A study of Rattus norvegicus with 6 samples.

Results

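A stretch of 3 Mb near one end of rat chromosome 7, from 8 to 11 Mb in the positions of the deposited list, held 235 of the 29268 distinct m6A intervals of the series, in 105 of its 13146 genes. Its members are the intervals on chromosome 7 that start from 8 Mb up to, but not including, 11 Mb. The stretch was chosen by the number of intervals in the same list, so its density is given below as a description. The series profiled m6A by methylated RNA immunoprecipitation sequencing (MeRIP-seq) in penile tissue of fetal Sprague-Dawley rats. The titles name 3 case and 3 control samples. Dams were gavaged daily from gestational day 12 to 19, either with DEHP (di-(2-ethylhexyl) phthalate, an anti-androgenic plasticizer) or with corn oil as vehicle, and fetuses were delivered by cesarean section at GD19.5 (GD, gestational day). Case tissue is, per the design text, that of affected males, whose urethra opens on the underside of the penis (hypospadias), and control tissue that of normal males. The titles do not state the gavage of each sample, nor whether tissue of several fetuses was pooled.

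N6-methyladenosine (m6A) is the most common internal modification of messenger RNA. It is written by a methyltransferase complex built around METTL3 and METTL14, can be removed by the demethylases FTO and ALKBH5, and is bound by reader proteins of the YTH family that act on splicing, translation and decay of the transcript. In mammals m6A is best known near stop codons, in 3' untranslated regions and in long exons. In MeRIP-seq an antibody enriches RNA fragments that carry the mark, and a run of enriched fragments is recorded as an interval that is wider than the modified base itself. A gene can enter such a list only if its RNA is present in the tissue. The number of genes with an interval per Mb thus depends on how densely genes lie and how many are transcribed. It depends too on how many transcripts carry the mark and are recorded as enriched, and the list does not separate these.

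Each line of the list pairs an interval (chromosome, start and end) with a gene ID and that gene's strand. The list holds 0 columns with a value of any sample. Hence no level, enrichment or depth stands behind an interval here, the list does not mark in which group an interval was found, and no difference between case and control could be measured for any of the 235 intervals. The genes are Ensembl IDs, 0 of which matched a symbol in the gene table used here, so the genes are given by ID and their functions are not stated. Intervals are not replicates of a condition, and neighbouring ones share genes and transcripts. Comparisons with the rest of chromosome 7 are therefore descriptions with no test, set beside the spread between windows of 3 Mb of the same chromosome.

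Per Mb, the stretch held many more genes with intervals than the rest of the chromosome, while each gene held about as many intervals as elsewhere. Intervals numbered 78.3 per Mb in the stretch and 12.5 per Mb in the rest of chromosome 7, a ratio of 6.29. Genes with at least 1 interval numbered 35 per Mb in the stretch and 5.57 per Mb in the rest, a ratio of 6.28. The mean per gene was 2.51 intervals in the stretch (SD 1.73, n = 105 genes) and 2.49 in the rest (SD 1.98, n = 731 genes), a difference of 0.02 that is small beside the spread between genes. The median was 2 in both. The stretch covered 2.24% of the 134 Mb between the first and the last interval of the chromosome and held 12.6% of its intervals and 12.6% of its genes.

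Among the 22 other windows of 3 Mb on chromosome 7 with at least 20 intervals, counts ran from 21 to 175 intervals with a median of 38.5. Intervals per gene ran from 1.94 to 3.73 in them, and 15 of the 22 windows lay above the 2.51 of the stretch. The fullest of the other windows, from 107 to 110 Mb, held 175 distinct intervals in 72 genes, with a mean of 2.82 per gene. The window from 131 to 134 Mb held 121 distinct intervals in 58 genes, with a mean of 2.28 per gene. In all these means a shared interval counts for each of its genes, so they exceed the ratio of distinct intervals to genes. Both had fewer genes than the stretch, and their counts per gene lay on either side of it.

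**Figure D1:**
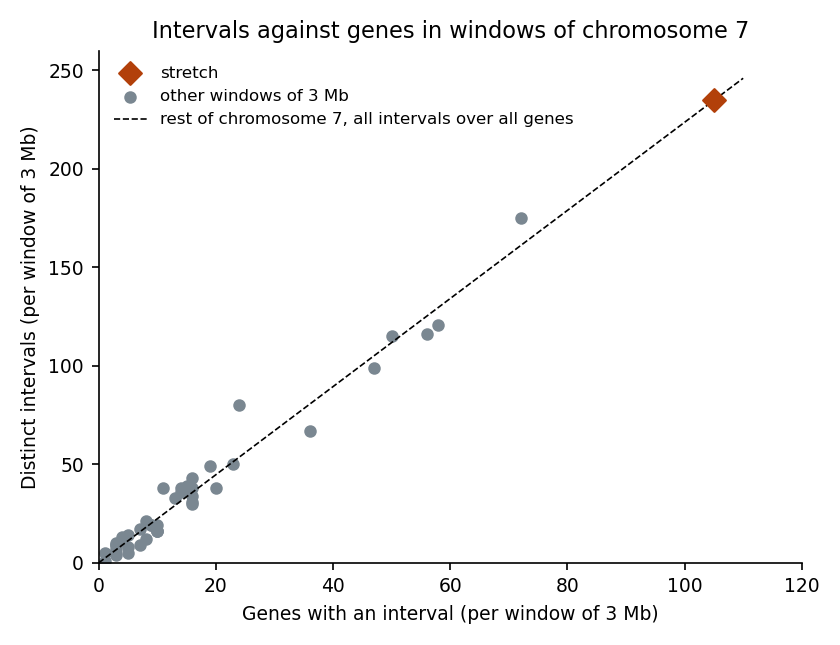
Distinct intervals against genes with an interval, 1 point for each window of 3 Mb on chromosome 7 that holds an interval; the dashed line is the ratio of all intervals to all genes in the rest of the chromosome. The stretch, with 235 intervals in 105 genes, lies at the far end of both axes and close to the line.

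Across the autosomes and X, 2523 windows of 3 Mb starting on a whole Mb held an interval, with a median of 25. Only 1 of them held more intervals than the stretch, the overlapping window from 7 to 10 Mb of the same chromosome with 245. The fullest windows elsewhere were 83 to 86 Mb on chromosome 1 with 227 and 2 overlapping windows on chromosome 18 with 208 each. The lower edge of the stretch thus did not mark an end of the dense part. The Mb below it held 38 intervals and the Mb above its upper edge 57.

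The edges fell between genes. No gene (0 of 105) had intervals both inside and outside. Just inside the lower edge lay an interval of 350 bp of ENSRNOG00000064426 (minus strand, 8013297 to 8013646), and just outside it one of 575 bp of ENSRNOG00000064149 (7987347 to 7987921). The last interval inside the upper edge was the single one of ENSRNOG00000007352 (10932642 to 10932941, 300 bp), and the first beyond it belonged to ENSRNOG00000007307 (11032973 to 11034613, 1641 bp).

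Within the stretch the intervals were far from evenly spread. The first Mb held 94 intervals in 44 genes, the second 113 in 50 and the third 28 in 12. Of the 235 intervals, 231 (98.3%) lay below position 10219970, in 103 genes. That point is the end of the last interval before the 2 longest runs without an interval. Up to it the stretch held 104 intervals and 46.4 genes per Mb, a density that follows in part from this choice of the point. The remaining 0.78 Mb held 4 intervals in 2 genes, ENSRNOG00000022871 with 3 and ENSRNOG00000007352 with 1. The longest run without an interval, 481235 bp, separated these 2 genes, and the next, 227813 bp, separated ENSRNOG00000022871 from the pair ENSRNOG00000051563 and ENSRNOG00000069262 below it.

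Cut into 30 bins of 0.1 Mb, the stretch had intervals in 24 and none in 6, of which 5 lay in the sparse upper part and 1 between 9.2 and 9.3 Mb. The 12 bins with at least 10 intervals held 171 of them (72.8%). In the rest of the chromosome, 30 of the 429 bins with an interval held as many. The fullest bin, from 9.3 to 9.4 Mb, had 25 intervals in 7 genes, and 12 of the 25 belonged to ENSRNOG00000033791 alone. The next, from 8.3 to 8.4 Mb, had 23 intervals in 11 genes. The other 6 genes of the fullest bin had between 1 and 4 intervals in it. The fullest bin in the rest of the chromosome held 35.

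**Figure D2:**
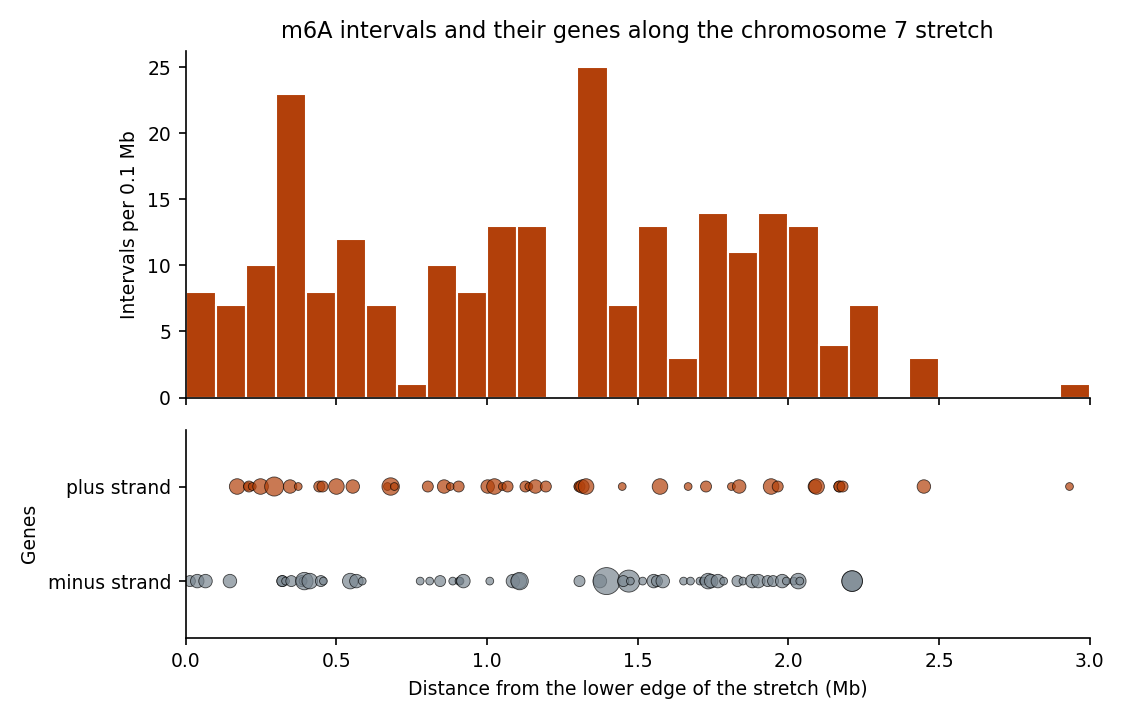
Top, distinct intervals in each bin of 0.1 Mb along the stretch, by distance from its lower edge. Bottom, the 105 genes at the middle of their intervals, by strand, with circle area in proportion to the number of intervals (1 to 12). Bars reach 25 and 23 in the fullest bins, and 4 intervals lie in the last 0.78 Mb.

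Genes lay close together, which follows in part from the interval count by which the stretch was chosen. In order of position, neighbouring genes of the stretch were separated by a median of 9461.5 bp between the end of the one's intervals and the start of the next one's, against 33066 bp in the rest of the chromosome. Distances of 5 kb or less, overlaps included, were found for 35 of 104 neighbouring pairs (33.7%) in the stretch and 146 of 729 (20.03%) in the rest. The intervals of neighbours overlapped in extent in 13 pairs (12.5%) of the stretch and 84 (11.5%) of the rest. These distances run between intervals and not between gene ends, which were not assigned.

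Both strands were used throughout. Of the 105 genes, 46 were on the plus strand (43.8%, 95% Wilson interval 34.7 to 53.4) and 59 on the minus strand, against 348 of 731 on the plus strand in the rest (47.6%, 95% Wilson interval 44.0 to 51.2). These intervals, and those of the shares below, cover counting error only and treat genes or intervals as independent, which they are not. Of neighbouring genes, 55 of 104 pairs lay on the same strand (52.9%), 24 pointed towards each other (23.1%) and 25 away from each other (24.0%). The shares in the rest were 49.0%, 25.7% and 25.4%. The longest run of neighbours on the same strand was 6 genes in the stretch and 9 in the rest. The 3 genes with an interval nearest the lower edge, ENSRNOG00000064426 among them, were all on the minus strand, as were 30 of the 50 genes of the second Mb.

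The number of intervals per gene had a similar form inside and outside. A single interval was found for 34 of the 105 genes (32.4%, 95% Wilson interval 24.2 to 41.8), against 258 of 731 in the rest (35.3%, 95% Wilson interval 31.9 to 38.8). Genes with 2, 3 and 4 intervals numbered 27, 23 and 13 in the stretch. Genes with 3 intervals made up 21.9% there and 16.6% in the rest, and genes with 4 made up 12.4% there and 7.80% in the rest. More than 5 intervals were found for 5 of the 105 genes of the stretch and 45 of the 731 of the rest. Among the 5, ENSRNOG00000051563 and ENSRNOG00000069262 had the same 7 intervals. The most was 12 in the stretch and 17 in the rest.

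**Figure D3:**
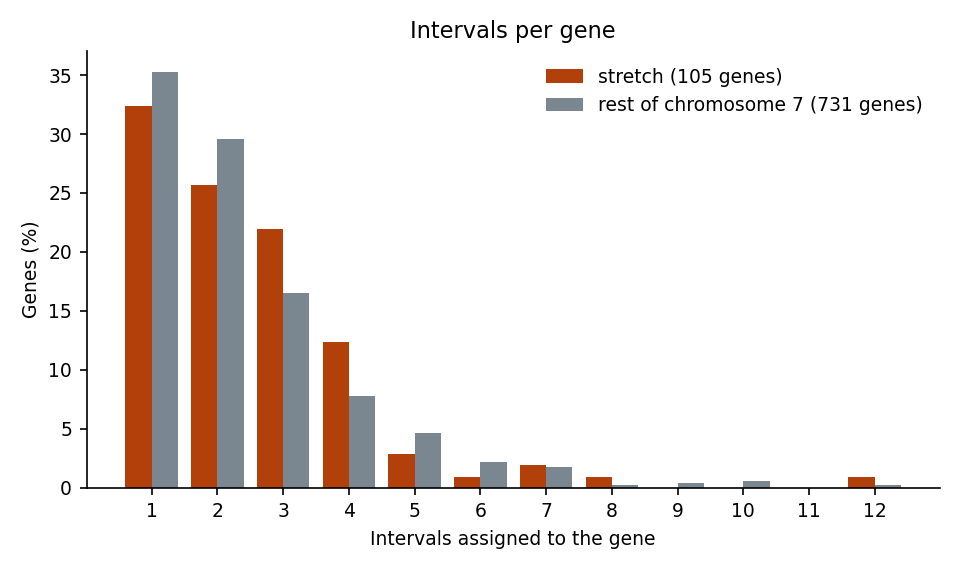
Share of genes by the number of intervals assigned to them, for the 105 genes of the stretch and the 731 of the rest of chromosome 7; 5 genes of the rest with more than 12 intervals lie beyond the axis. Single-interval genes make up 32.4% in the stretch and 35.3% in the rest.

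ENSRNOG00000033791, on the minus strand, led the genes of the stretch with 12 intervals from 9393236 to 9400010, none of which was assigned to a second gene. From the 5' end their widths were 425, 50, 300, 1325, 350, 50, 75, 650, 500, 175, 250 and 425 bp. The gaps between them ran from 0 to 475 bp. All 12 widths were whole multiples of 25 bp and all starts lay whole multiples of 25 bp apart, and the intervals together took 4575 of the 6775 bp they spanned (67.5%). They thus form a closely spaced block on 1 grid of 25 bp, the step on which most widths of the list fall. Exons and introns were not assigned here.

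ENSRNOG00000031387, also on the minus strand, had 8 intervals of another layout. They spanned 92351 bp, from 9424178 to 9516528, the longest extent of any gene in the stretch, and took 13.9% of it. From the 5' end the widths were 100, 1627, 275, 325, 50, 8058, 2229 and 175 bp, and gaps of 39992, 22268 and 10135 bp stood between some of them. The first 5 of the 8 were each assigned to a second gene too, whereas the 3 nearest its 3' end were its own.

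The 6 intervals of ENSRNOG00000004505, on the plus strand, lay between 8278276 and 8309369. Widths were 50, 200, 75, 825, 175 and 50 bp from the 5' end, and the last 3 began 29644 bp or more from the 5' end of a span of 31094 bp. ENSRNOG00000039852, ENSRNOG00000045524 and ENSRNOG00000063591 tied with 5 intervals each, and the first of them by position is described. In ENSRNOG00000039852, on the minus strand from 8391397 to 8396142, 5 intervals of 200, 526, 50, 375 and 200 bp took 28.5% of a span of 4746 bp. Among the genes with the most intervals, layouts thus ran from a compact block to intervals scattered over 92.4 kb.

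**Figure D4:**
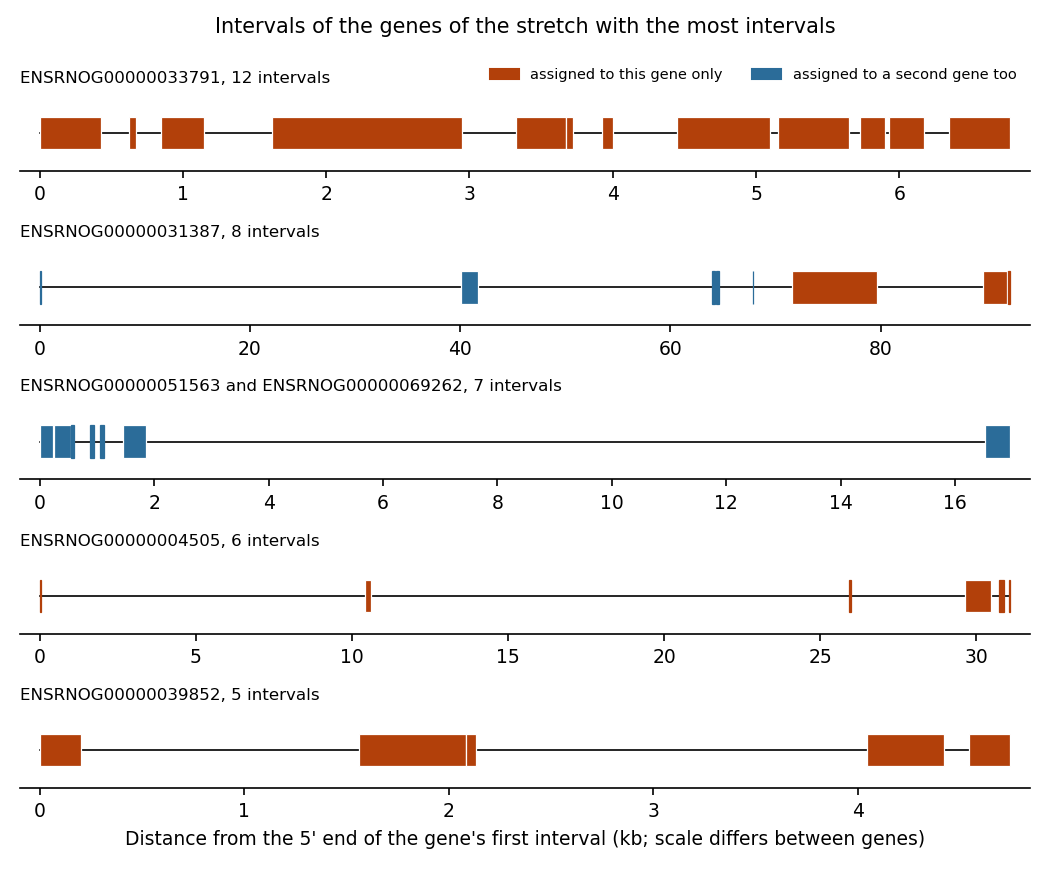
Intervals of 6 genes of the stretch, the 5 with more than 5 intervals and the first by position of 3 tied at 5, by distance in kb from the 5' end of the gene's first interval; boxes are intervals, blue where a second gene shares them, and each row has its own scale. The 12 intervals of ENSRNOG00000033791 fill most of 6.78 kb, the 8 of ENSRNOG00000031387 spread over 92.4 kb, and ENSRNOG00000051563 and ENSRNOG00000069262 share 1 row because their 7 intervals are identical.

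For the 71 genes with 2 or more intervals the span from the first to the last had a median of 5967 bp in the stretch, against 6661 bp for 473 genes in the rest. Spans of at most 10 kb were found for 53 of the 71 (74.6%, 95% Wilson interval 63.4 to 83.3) and for 274 of the 473 (57.9%, 95% Wilson interval 53.4 to 62.3). In the 22 other windows this share ran from 10% to 81.8% with a median of 57.3%, and 1 of them exceeded the stretch. Intervals took a median of 41.2% of the span in the stretch and 29.7% in the rest, with quartiles of 13.9% and 75.2% in the stretch and 8.85% and 65.0% in the rest. All intervals lay on a single grid of 25 bp in 16 of the 71 genes (22.5%) and 129 of the 473 (27.3%). Compact spans, those of at most 10 kb, thus made up a larger share in the stretch than in the rest. Their share was 64% in the window from 107 to 110 Mb and 71.4% in that from 131 to 134 Mb. Both values lay within the 95% Wilson interval of the stretch. For genes on a single grid no counting interval or window spread was taken, so their shares are given without reading a difference from them.

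In the 44 genes of the stretch with 3 or more intervals, the inner intervals stood on average at 0.536 of the way from the 5'-most to the 3'-most interval (SD between genes 0.270). In the 257 such genes of the rest they stood at 0.544 (SD 0.280). The value was above the middle in 23 genes of the stretch and below it in 21, against 141 above and 115 below in the rest. The difference between stretch and rest was far smaller than the spread between genes.

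Most of the shared intervals of the stretch belonged to genes of the same strand, largely through a few gene groups, and this did not hold when 1 gene was kept of those with identical intervals, as given further on. An interval was assigned to 2 genes in 29 of 235 cases (12.3%, 95% Wilson interval 8.73 to 17.2) in the stretch and to 2 or 3 genes in 178 of 1635 (10.9%, 95% Wilson interval 9.47 to 12.5) in the rest. Both genes lay on the same strand for 19 of the 29, or 8.09% of all intervals (95% Wilson interval 5.24 to 12.3), against 3.36% (95% Wilson interval 2.59 to 4.35) in the rest. Genes of both strands shared 10, or 4.26% (95% Wilson interval 2.33 to 7.65), against 7.52% (95% Wilson interval 6.34 to 8.90) in the rest. Of shared intervals, genes of both strands thus accounted for 34.5% in the stretch and 69.1% in the rest. In the window from 107 to 110 Mb the same share was 78.6%, and in that from 131 to 134 Mb it was 70.0%. Across the 22 other windows, the same-strand share of all intervals ran from 0% to 14%, and 3 exceeded the stretch. The both-strand share of all intervals ran from 0% to 38.8% in them, and 8 lay below the stretch. Same-strand sharing was the more frequent kind in some of them too. It made up 6.90% against 4.31% from 110 to 113 Mb, and 14% against 8% from 89 to 92 Mb.

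The 29 shared intervals tied 27 genes (25.7% of 105) into 12 groups, 11 of them pairs and 1 of 5 genes. In the rest, 159 of 731 genes (21.8%) were tied into 72 groups of at most 4. Of the 12 groups, 4 were same-strand pairs and 7 were pairs of opposite strands. The group of 5 held genes of both strands.

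The pair with the most shared intervals was ENSRNOG00000051563 and ENSRNOG00000069262, both on the minus strand. Their 7 intervals were identical, from 10203007 to 10219970, with widths of 225, 300, 50, 75, 75, 400 and 450 bp from the 5' end. The first 6 lay within 1850 bp, and the 7th followed after 14664 bp. By this list the signal of the one gene cannot be told from that of the other. A further 2 same-strand pairs also had identical sets, of 2 intervals each: ENSRNOG00000004259 with ENSRNOG00000066999 (minus strand, 8319308 to 8322152), and ENSRNOG00000000175 with ENSRNOG00000070264 (plus strand, 10168678 to 10169477). In the pair ENSRNOG00000018271 and ENSRNOG00000063591, on the minus strand, all 4 intervals of the one were among the 5 of the other.

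ENSRNOG00000031387 joined the group of 5. It shared 2 intervals with ENSRNOG00000024568 and 1 each with ENSRNOG00000016203 and ENSRNOG00000024549, all on its own strand, and 1 of 50 bp with ENSRNOG00000024577 on the plus strand. These 4 partners held 5 intervals among them and none of their own. Whether the RNA there came from the long gene or from its partners was not tested.

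The 7 opposite-strand pairs shared 1 or 2 intervals each. ENSRNOG00000016952 and ENSRNOG00000068480 had the same 2 intervals (9305088 to 9308508), of 275 and 2896 bp, on opposite strands. ENSRNOG00000020230 and ENSRNOG00000020266 shared the widest of the shared intervals, 5586 bp from 8549669 to 8555254, and one of 275 bp. The other 5 pairs shared a single interval each, between 100 and 600 bp wide. For all of these the list does not tell which strand carried the signal.

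When 1 gene was kept of those with identical intervals, in the whole list, the same-strand share was 3.40% in the stretch and 2.57% in the rest. The excess of same-strand sharing, 4.72 percentage points, was then 0.84. Intervals shared by genes of both strands then also made up 3.40% in the stretch, so same-strand sharing was no longer the more frequent kind, and 5.63% in the rest. Shared intervals of either kind were then a smaller share in the stretch, 6.81%, than in the rest, 8.20%. In the rest of the chromosome, 11 gene sets had 2 or more identical intervals, and the largest such set had 10. In the stretch there were 4.

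Widths in the stretch were close to those in the rest. The median width was 250 bp in the stretch and 250 bp in the rest, with quartiles of 150 and 469.5 bp in the stretch and 150 and 500 bp in the rest. Whole-step widths, exact multiples of 25 bp, made up 188 of 235 intervals (80.0%, 95% Wilson interval 74.4 to 84.6) in the stretch and 81.0% in the rest. Among other windows this share ran from 70.1% to 94.9%. Whole-step intervals had a median of 225 bp in the stretch and 200 bp in the rest, the others 1249 bp in the stretch and 1296 bp in the rest. The most frequent width in the stretch was 175 bp with 22 intervals (9.36%), followed by 50 bp, the narrowest, with 21 (8.94%). In the rest these widths made up 9.85% and 6.67%.

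Very wide intervals were few. Widths above 1000 bp were found for 33 intervals (14.04%) in the stretch and 208 (12.7%) in the rest, and 28 of the 33 were off the 25-bp steps. Above 10000 bp there were 2 in the stretch (0.851%, 95% Wilson interval 0.234 to 3.05) and 41 in the rest (2.51%, 95% Wilson interval 1.85 to 3.38). The widest in the stretch, 12591 bp, belonged to ENSRNOG00000020577 on the minus strand (8413369 to 8425959) and the next, 11979 bp, to ENSRNOG00000009760 (9900389 to 9912367). The widest in the rest of the chromosome was 321176 bp. The widest whole-step interval in the stretch was 2500 bp, in ENSRNOG00000005370 on the plus strand (8209273 to 8211772). Start to end distances are genomic, so a wide interval is not a length of methylated RNA. Summed widths came to 5.47% of the stretch and 1.86% of the rest.

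Gaps follow in part from the interval count by which the stretch was chosen, and are given as a description. Neighbouring intervals were a median of 2970.5 bp apart in the stretch, with quartiles of 200 and 11131.5 bp, and 5309 bp apart in the rest, with quartiles of 300 and 37787 bp. Medians of the 22 other windows ran from 663 to 46998 bp, and 9 of the 22 were shorter than that of the stretch, among them the window from 107 to 110 Mb with 1388 bp. Between neighbours that shared a gene the median gap was 375 bp in the stretch (145 pairs) and 475 bp in the rest (991 pairs). Neighbours with no gene in common were a median of 11683 bp apart in the stretch (89 pairs) and 43987 bp in the rest (642 pairs). The difference was thus wider between genes than within them. Gaps over 50 kb made up 9 of 234 in the stretch (3.85%) and 21.2% in the rest. Gaps of at most 100 bp made up 36 (15.4%) in the stretch and 13.2% in the rest, all between intervals that shared a gene, and 5 pairs in the stretch abutted with no gap.

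**Figure D5:**
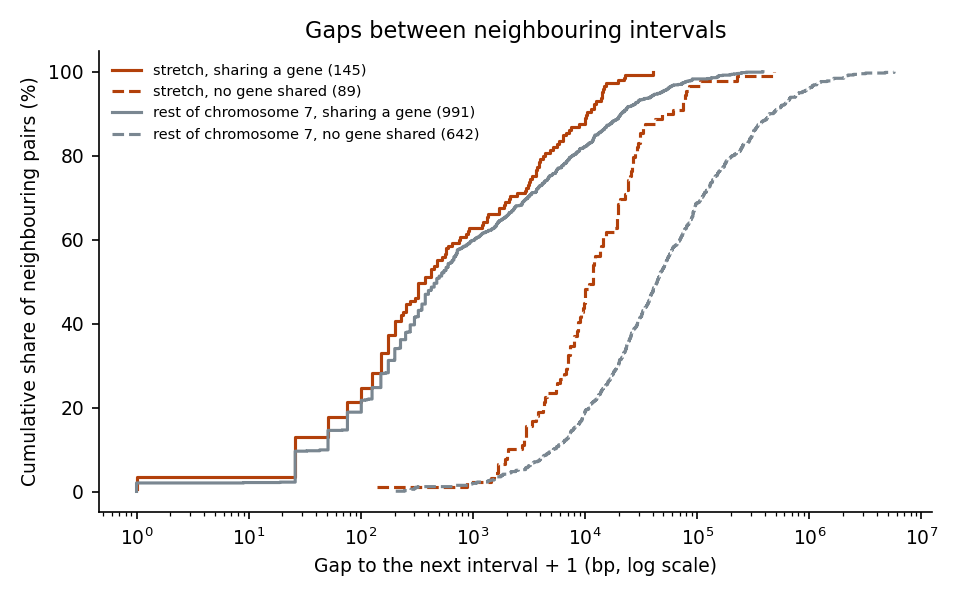
Cumulative share of neighbouring interval pairs by the gap between them, on a log scale with 1 bp added, for pairs that share a gene (solid) and pairs that do not (dashed). The solid lines of the stretch and of the rest of chromosome 7 run close together, with medians of 375 and 475 bp, while the dashed lines lie apart, with medians of 11683 and 43987 bp.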

How the data were processed

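Per the labels' protocols, RNA of fetal penile tissue was fragmented, precipitated with an antibody against m6A and sequenced with its input. Per the submitters' processing notes, reads went through HISAT2 and Rnor_6.0 is the build named; how peaks were found, with which annotation and threshold, and whether samples were pooled for it is not given in the sources. Per the file headers, the deposited table has 5 columns (chromosome, start, end, gene ID, gene strand) and 0 values per sample, so the depth is unknown, and the count test planned in case of counts was not run. The table names no build. Chromosome 7 is known to be clearly longer in Rnor_6.0 than 134662203, its last interval end here, so these positions need a check before use on that build; no sequence was read.

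Starts count from 0 in the file and are printed counting from 1. Widths, sharing and gaps were taken over distinct intervals, and counts per gene over each pairing of interval and gene. The rest of chromosome 7 is its other 1635 intervals, over the length from its first to its last interval less the stretch; no gap was taken across the stretch. Python 3.11.15, numpy 2.4.6, pandas 2.3.3, scipy 1.17.1 and matplotlib 3.10.9 were used. Counts of intervals, of genes and of intervals shared by both strands were tested on simulated data, and the joining of neighbours on a made-up case. The other measures were not tested in this way. Genes were named by rule: the 6 with the most intervals (3 tied at 5 intervals for the last place, which went to the first by position), those of the most shared intervals and largest linked group, of the widest intervals, of the edges and of the longest gap; other shared pairs were named after their values were seen. The members, measures and alternatives were chosen with earlier results of these data known.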

Additional observations from a re-analysis of the deposited data

How the results depend on the processing

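Of 74 values recomputed over 9 results, with 8 alternatives and 2 more chosen after seeing the data, 73 stayed within the main value's range (1.5 times for densities, otherwise the 95% counting interval of the stretch). The exception was the same-strand sharing difference, 0.84 percentage points with 1 gene kept of those with identical intervals, since that removes assignments by construction, against 4.72. Same-strand sharing was itself not among the results planned. The ratio of intervals per Mb ran from 5.22, over windows of 1 Mb that hold an interval, to 7.54 with the upper edge 0.5 Mb lower. The difference in intervals per gene ran from -0.05 to 0.17 and has no settled sign. Nor has that in the share of intervals with several genes, from -1.39 to 4.08 percentage points. The difference in the share of whole-step widths, from -3.37 to 0.35 percentage points, has none either. The difference in median width, 0 bp in the main setting, was 0 to 50 bp with the stretch never narrower. It was 50 bp when neighbours up to 100 bp apart that share a gene were joined. No paired analysis was possible because no column belongs to a sample, and no replicate could be left out. Depth is unknown.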
